A study of Mus musculus with 13 samples.

Results

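*Ephb3*, *Rnf214*, *March10*, *Wdr19*, *Nxpe4* and *Dclre1b* are 6 of the 55335 genes of the count table, listed because their counts differed widely between fetal oocytes with a conditional deletion of the glucocorticoid receptor (cKO) and their floxed controls (flox). They were chosen on the cKO and flox counts of these same libraries, so their cKO and flox values are given as a description and without a test. The rule of that choice did not use their level in the constitutive knockout (KO) and its wild-type controls (WT), and there they were tested. Earlier results of these data were known when the genes and the lists of their relatives were chosen. The tests are therefore not fully apart from the choice.

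The glucocorticoid receptor, GR, encoded by *Nr3c1*, is a transcription factor that moves to the nucleus when it binds a glucocorticoid hormone and binds DNA as a dimer at a palindromic response element. The study asked what its loss does to the transcriptome of fetal oocytes, which at late gestation are passing through prophase of the first meiotic division. The listed genes belong to different pathways: a receptor tyrosine kinase for cell contact (*Ephb3*), members of the RING-type families of ubiquitin ligases (*Rnf214*, *March10*), a protein of cilium transport (*Wdr19*), a telomere nuclease (*Dclre1b*) and a little-studied gene of the neurexophilin and PC-esterase family (*Nxpe4*).

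The libraries were made from OCT4-GFP positive germ cells sorted from the ovary pair of single female mouse embryos at E17.5, by a protocol that sequences tags near the 3′ end of each mRNA. WT (n = 3) and KO (n = 3) embryos came from crosses of constitutive heterozygotes, and KO embryos carried the deletion of exon 3 of *Nr3c1* on both alleles in every tissue. The flox (n = 3) and cKO (n = 4) embryos were homozygous for the exon 3 floxed allele, and all their dams had received 125 μg of tamoxifen per g at E10.5. In cKO embryos a tamoxifen-dependent Cre (CreERT2) expressed from the *Pou5f1* locus could delete the exon in germ cells. The strain label names the Nr3c1tm1.1Jda allele and the Pou5f1 reporter transgene for every library, and names the Cre allele for flox and cKO alike, whereas the study's methods give the Cre only for cKO embryos. Litters were not given, so p-values measure the spread between single embryos that may share a dam.

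The 13 libraries held between 2048706 and 3674989 counts, so that 1 count stood for 0.272 to 0.486 CPM (counts scaled to 1000000 per library after TMM scaling), and counting error alone is wide for a gene with few counts. Of the 55335 genes 13086 passed the filter on low counts, all 6 listed genes among them, *Ephb3* and *March10* with groups at 0. *Nr3c1* itself did not separate the genotypes, with 54 to 167 counts in KO against 61 to 216 in WT and 82 to 211 in cKO against 105 to 215 in flox. The counts are per gene and cannot show whether exon 3 was present. The study reported loss of GR in KO by immunofluorescence, immunoblot and qRT-PCR, and depleted *Nr3c1* transcript in single cells of younger KO ovaries. All 10 oocyte markers checked had counts in the series and summed to between 11183 and 18263 CPM per library, with *Pou5f1*, the gene behind the sort, at 0 in every WT and KO library. Ovarian somatic markers (15 of 15 with counts) summed to 109 to 142 CPM in KO, 148 to 198 in WT, 131 to 304 in flox and 185 to 335 in cKO. Erythroid markers (5 of 7 with counts, *Hbb-y* and *Alas2* at 0) summed to 282 to 1323 CPM in flox, 76.9 to 191 in cKO, 90.8 to 238 in WT and 0 to 152 in KO. Endothelial markers (4 of 4) summed to 1.94 to 25.5 CPM in KO and 31.0 to 81.2 in the other libraries, and macrophage markers (4 of 4) to 0.423 to 50.4 over all libraries. Each of these 2 sums came mostly from 1 gene. The median over all libraries was 36.8 CPM for *Pecam1* but 0.760, 0 and 0 for *Cdh5*, *Kdr* and *Tie1*. It was 5.82 CPM for *Cx3cr1* but 0, 0 and 0.367 for *Ptprc*, *Csf1r* and *Adgre1*. The sums therefore do not show carry-over of these cell types. The part of these cells in the results below was not tested, and in sorted bulk samples fewer cells of a type and less RNA per cell cannot be told apart.

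The promoters of the 3 genes that were higher in cKO, and of *Ephb3*, which had no count there, are shown because GR is known for binding DNA at its response element. Each runs 5′ to 3′ along the gene from 250 bases before to 50 after a start annotated by RefSeq on GRCm38.p6, and capitals mark any match, on either strand, to the motifs named after them. The windows are chr5:65199446-65199745 on the plus strand for *Wdr19*, chr3:103809338-103809637 on the minus strand for *Dclre1b*, chr9:48361791-48362090 on the plus strand for *Nxpe4* and chr16:21204545-21204844 on the plus strand for *Ephb3*.
*Wdr19*: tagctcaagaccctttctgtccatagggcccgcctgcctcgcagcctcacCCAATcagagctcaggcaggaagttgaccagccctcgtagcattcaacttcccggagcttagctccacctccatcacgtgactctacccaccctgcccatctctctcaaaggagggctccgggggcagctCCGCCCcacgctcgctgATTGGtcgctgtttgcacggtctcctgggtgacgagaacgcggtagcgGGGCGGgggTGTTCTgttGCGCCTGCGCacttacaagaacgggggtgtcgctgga
*Dclre1b*: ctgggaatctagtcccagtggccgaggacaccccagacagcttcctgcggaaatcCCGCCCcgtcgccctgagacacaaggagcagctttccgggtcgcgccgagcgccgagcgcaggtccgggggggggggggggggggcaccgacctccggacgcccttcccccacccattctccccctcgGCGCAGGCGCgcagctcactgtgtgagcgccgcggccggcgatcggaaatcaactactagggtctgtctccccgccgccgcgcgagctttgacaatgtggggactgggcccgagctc
*Nxpe4*: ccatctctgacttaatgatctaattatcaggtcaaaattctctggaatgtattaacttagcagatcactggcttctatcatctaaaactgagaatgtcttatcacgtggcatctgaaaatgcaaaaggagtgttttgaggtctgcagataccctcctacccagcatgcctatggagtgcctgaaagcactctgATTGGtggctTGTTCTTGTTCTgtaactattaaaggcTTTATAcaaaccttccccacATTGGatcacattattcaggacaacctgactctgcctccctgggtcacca
*Ephb3*: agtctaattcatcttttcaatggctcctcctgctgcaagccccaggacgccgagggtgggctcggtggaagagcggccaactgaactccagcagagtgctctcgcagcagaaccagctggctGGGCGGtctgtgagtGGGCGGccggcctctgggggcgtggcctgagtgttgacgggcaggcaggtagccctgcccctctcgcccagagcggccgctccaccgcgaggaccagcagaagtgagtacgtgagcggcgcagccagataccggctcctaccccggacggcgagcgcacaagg

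All 6 genes had a promoter in the RefSeq table (*March10* under its newer symbol *Marchf10*, and *Rnf214* with 2 starts). None of these windows held the full response element, the half-site AGAACA followed after any 3 bases by its reverse complement TGTTCT, which occurred in 3 of 32851 promoters of the same length (0.00913%). The half-site alone, found in 19% of all promoters, was in *Wdr19* at position 5 after the start and in *Nxpe4* at positions -47 and -41, the latter as the adjoining TGTTCTTGTTCT. The other letters searched were the GC box GGGCGG (35.7% of promoters), the CCAAT box (37.4%), the TATA box TATAAA (13.6%), the NRF1 motif, GCGC repeated after any 2 bases (6.23%), the cAMP response element TGACGTCA (1.79%) and the STRA8 motif CNCCTCAG (7.94%), STRA8 being the factor that starts the meiotic programme. *Wdr19* and *Dclre1b* each held 1 NRF1 motif, at positions 14 and -67, and NRF1 is an activator of many housekeeping genes. *Nxpe4* alone of the 6 held a TATA box, at position -20, and its window was 42.3% G and C against 62.3 to 81.7% in the others and a median of 52.7% over all promoters. No STRA8 motif and no cAMP response element was found in any of the 6. These matches say only which letters stand in the windows.

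**Figure D1:**
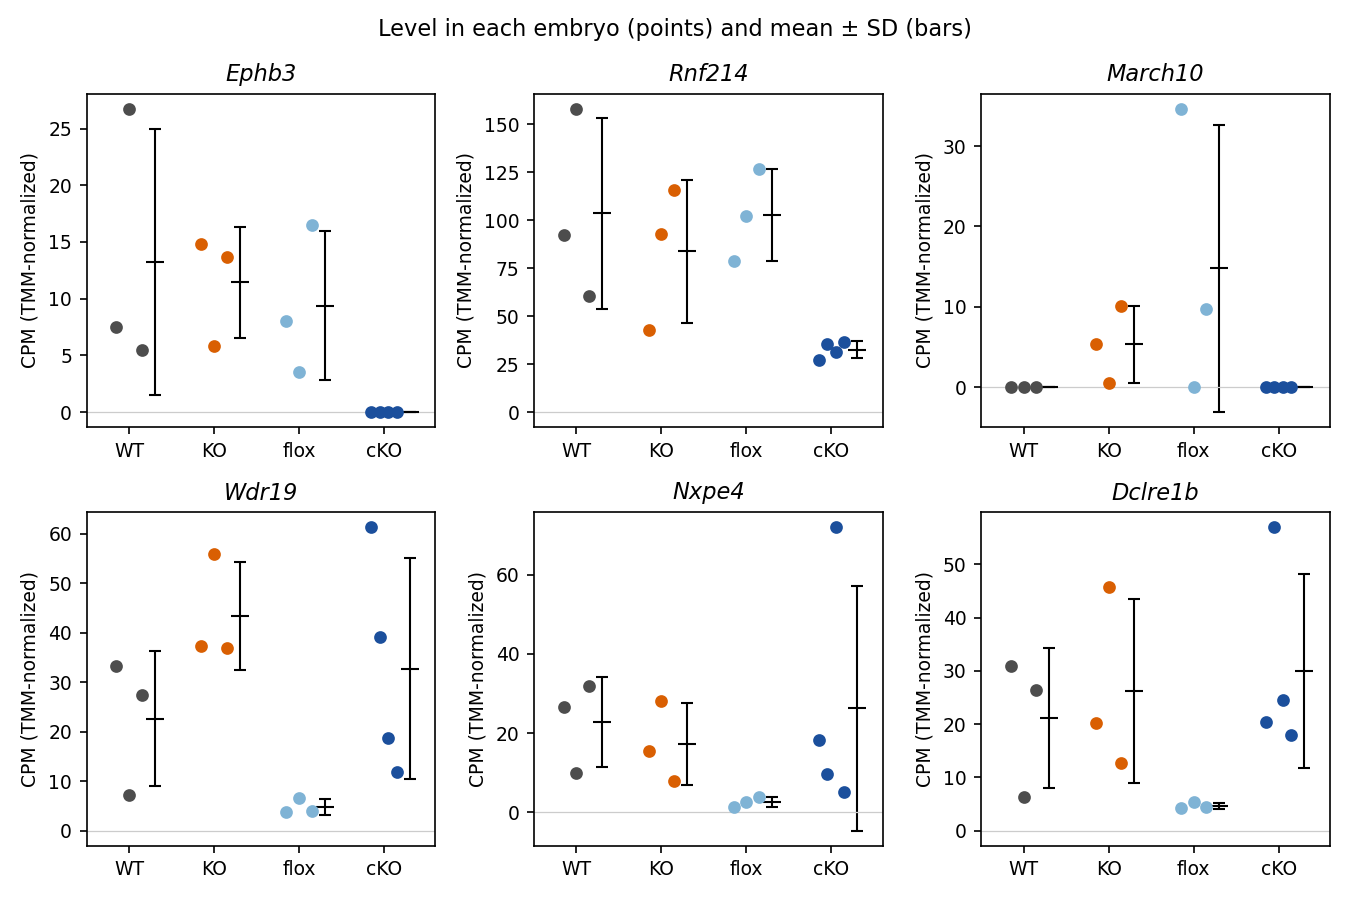
Level of each of the 6 genes in the 13 embryos: the y axis is CPM scaled by TMM factors, the x axis the 4 groups (WT, KO and flox n = 3, cKO n = 4), points are embryos and bars the mean ± SD. *Ephb3* and *March10* lie at 0 in all 4 cKO embryos, *Rnf214* is lowest in cKO, and *Wdr19*, *Nxpe4* and *Dclre1b* are lowest in flox, whose highest values are 6.66, 3.88 and 5.33 CPM.

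The first of the 3 genes lower in cKO, *Ephb3* (ENSMUSG00000005958.15, mm10 chr16:21204755-21223305, plus strand, overlapped by no other gene), encodes a receptor tyrosine kinase that binds ephrin-B ligands on neighbouring cells and takes part in the repulsion and sorting of cells. It had 19, 8 and 34 counts in the flox embryos and 0 in each of the 4 cKO embryos. In WT it had 17, 56 and 20 counts and in KO 39, 12 and 31. The cKO embryos therefore stood below all 9 others, and the remaining groups overlapped. Its mean level was 9.36 ± 6.57 CPM in flox (SD, n = 3), 13.2 ± 11.8 in WT (n = 3), 11.4 ± 4.88 in KO (n = 3) and 0 in cKO (n = 4). Taking 3 counts in each library as the floor, *Ephb3* was at least 8.61-fold lower in cKO than in flox, a bound that fell to 5.33-fold without flox replicate 3.

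*Rnf214* (ENSMUSG00000042790.16, chr9:45863425-45906911, minus strand) encodes a RING finger protein and was the only one of the 6 with at least 10 counts in every library. Flox embryos had 186, 230 and 261 counts and cKO embryos 78, 91, 85 and 106. WT embryos had 208, 331 and 223 counts and KO embryos 112, 191 and 263. On the CPM scale each cKO embryo (27.0 to 36.6) lay below each of the 9 others (42.6 to 158), a difference in level of 3.14-fold between the means of flox (102 ± 24.0) and cKO (32.6 ± 4.38). The 3′ end of *Rnf214*, where tags fall, lies inside *Bace1* on the opposite strand over 975 bases, and at its other end it meets *Pcsk7*, so reads of these genes could be told apart only if the counting used strand, which was not stated.

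*March10* (ENSMUSG00000078627.9, chr11:105360798-105456735, minus strand) encodes a membrane-associated RING-CH ubiquitin ligase known from spermatids. Its counts were 82, 0 and 20 in flox and 0 in each cKO embryo. They were 0 in each WT embryo and 14, 1 and 23 in KO. Flox replicate 2 shared the 0 of the cKO embryos, so *March10* was the only one of the 6 whose flox and cKO groups overlapped. The level in flox was 14.8 ± 17.9 CPM, at least 13.6-fold above cKO with the floor of 3 counts and at least 4.46-fold without flox replicate 1. A noncoding gene on the opposite strand within it, *Gm11638*, had 0 counts in the series.

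Among the 3 genes higher in cKO, *Wdr19* (ENSMUSG00000037890.13, chr5:65199696-65260415, plus strand) encodes IFT144, a subunit of the IFT-A complex that carries cargo from the tip of the cilium back to its base. It had 9, 15 and 8 counts in flox and 177, 100, 51 and 34 in cKO. The constitutive cross gave 75, 15 and 101 counts in WT and 98, 115 and 84 in KO. The flox embryos (3.80 to 6.66 CPM) lay below each of the other 10 (7.17 to 61.3), and the means of cKO (32.7 ± 22.3) and flox (4.78 ± 1.63) differed 6.84-fold, a fitted log2 difference of 2.76. The nearest gene past its 3′ end, *Rfc1*, ends 1435 bases away on the opposite strand and had 16466 counts over the series.

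*Nxpe4* (ENSMUSG00000044229.9, chr9:48162023-48400025, plus strand) had 3, 6 and 8 counts in flox and 53, 25, 196 and 15 in cKO. WT embryos had 60, 21 and 117 counts and KO embryos 41, 58 and 18. Again the flox embryos, at 1.27 to 3.88 CPM, were the lowest 3 of the 13, with the others at 5.18 to 72.0. The cKO mean of 26.3 ± 30.9 CPM was 10.1-fold that of flox (2.60 ± 1.31), and its SD exceeded it because replicate 3 stood at 72.0 CPM; the fitted log2 difference of 3.32 was 2.07 without that embryo. The counted interval of 238 kb encloses *Nxpe2* on the opposite strand, which had 0 counts, and the RefSeq start shown above lies inside it.

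*Dclre1b* (ENSMUSG00000027845.15, chr3:103800605-103809444, minus strand) encodes Apollo, a nuclease of the SNM1 family that is recruited by the telomere protein TRF2 and trims the ends of newly copied telomeres. Flox embryos had 10, 12 and 9 counts and cKO embryos 59, 146, 67 and 52. In the constitutive cross WT embryos had 70, 13 and 97 counts and KO embryos 53, 94 and 29. The flox embryos, at 4.23 to 5.33 CPM, lay below the other 10, at 6.21 to 57.0. The means of cKO (30.0 ± 18.2 CPM) and flox (4.64 ± 0.602) differed 6.46-fold, a fitted log2 difference of 2.68. A noncoding gene on the opposite strand, *Gm15471*, covers 60.1% of it and had 0 counts.

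For 5 of the 6 genes the cKO and flox embryos did not overlap, where 4.97% of the 13086 tested genes had groups that did not; as the genes were chosen on this contrast, nothing is read from that count. No gene of the table passed the adjusted threshold of 0.05 in it by edgeR's quasi-likelihood test (0.0% called), while 418 genes, 3.19%, had an unadjusted p under 0.05, and DESeq2 called 5 and limma voom 0. The 5 included 1 listed gene, *Ephb3*, which this same contrast chose, so the call is no test of it. Which group stood apart differed within the list. *Ephb3* and *Rnf214* were lowest in cKO among all 4 groups, as were 0.0993% of the tested genes, whereas *Wdr19*, *Nxpe4* and *Dclre1b* were lowest in flox, as were 0.237%. Both of these groups entered the choice, so nothing is read from these shares either. For the latter 3 the cKO means lay within the range of the WT and KO embryos.

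**Figure D2:**
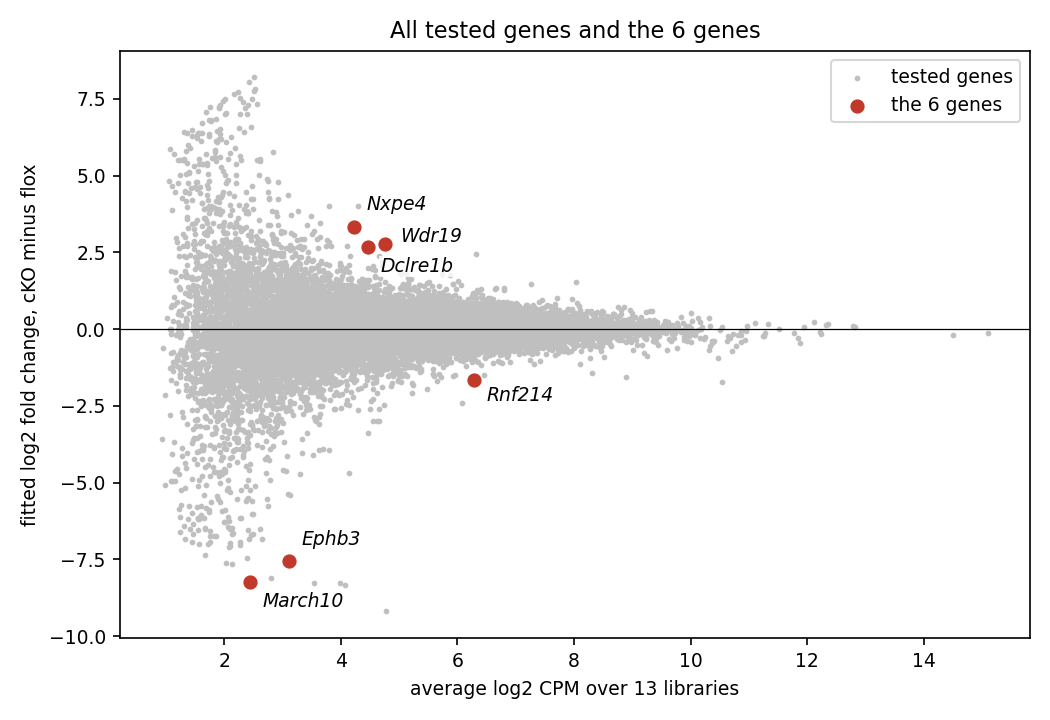
The 13086 tested genes (grey) and the 6 listed genes (red): the x axis is the average log2 CPM over the 13 libraries and the y axis the fitted log2 difference of cKO minus flox. *Wdr19*, *Nxpe4* and *Dclre1b* lie at 2.76, 3.32 and 2.68 and *Rnf214* at -1.65 among many grey points of the same size; the heights of *Ephb3* and *March10* depend on the prior count.

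The list did not hold the largest differences of the table alone. Fitted log2 differences between cKO and flox exceeded 1 in size for 2982 genes and 4 for 312, and 1445 other tested genes differed by more than *Rnf214*, the smallest of the 6. Ordered by the p of the fit, *Ephb3*, *Rnf214* and *Wdr19* held positions 1, 2 and 6, *March10* 11, and *Nxpe4* and *Dclre1b* 23 and 24, and ordered by size *March10* held position 5, *Ephb3* 16, *Nxpe4* 434, *Wdr19* 603, *Dclre1b* 639 and *Rnf214* 1451. Both orders come from the contrast that chose the genes and are given as a description.

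In KO against WT, the comparison that the rule of the choice left out, none of the 6 genes passed the threshold. None of the 13086 tested genes did (0.0% called by edgeR's quasi-likelihood test, with 761 genes, 5.82%, at an unadjusted p under 0.05). DESeq2 called 12 genes and limma voom 0, none of them listed. With 3 embryos against 3 an exact permutation test of a single gene cannot give a p under 0.1. The sign was that of cKO against flox for 4 of the 6 genes and opposite for *Nxpe4* and *March10*. For *Wdr19* the KO and WT embryos did not overlap, as for 9.46% of all tested genes, and it was higher in KO, as for 3.79%. In *March10* the groups did not overlap either, but KO replicate 2 held only 1 count, so no share is set beside it.

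*Ephb3*, absent from the cKO libraries, was present in every KO library, at 5.83 to 14.8 CPM against 5.44 to 26.8 in WT. The log2 difference of KO minus WT was -0.21 with an SE of 1.43 (95% interval -3.17 to 2.76, two-sided exact permutation p = 1, n = 3 and 3). *Rnf214* differed by -0.31 (SE 0.44, interval -1.21 to 0.60, exact permutation p = 0.7, n = 3 and 3), with KO embryos at 42.6 to 116 CPM and WT embryos at 60.6 to 158. The groups of both genes overlapped, and the interval of *Ephb3* leaves room for a difference of several fold in either direction.

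*Wdr19* was higher in each KO embryo (36.9 to 55.9 CPM) than in any WT embryo (7.17 to 33.2), the same direction as in cKO. The log2 difference was 0.94 (SE 0.77, interval -0.65 to 2.52, edgeR quasi-likelihood adjusted p = 0.978), and the exact permutation p of 0.1 (n = 3 and 3) was the smallest that the design allows. *Dclre1b* differed by 0.30 (SE 0.84, interval -1.43 to 2.03) and *Nxpe4* by -0.41 (SE 1.00, interval -2.46 to 1.65), with exact permutation p of 0.7 and 0.6 (n = 3 and 3). The KO and WT embryos of both genes overlapped, and the intervals do not show that the levels were alike.

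*March10* lay the other way in this model. It was detected in each KO embryo, at 5.32, 0.486 and 10.1 CPM, and in no WT embryo, whereas in the conditional cross it was detected only in flox. With the floor of 3 counts it was at least 4.45-fold higher in KO, and at least 2.44-fold without KO replicate 3; KO replicate 2 held a single count. *March10* passed the filter on low counts only through KO and flox embryos, the groups where it was detected. It was filtered out when KO and WT were fitted alone, so no p is given for it.

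**Figure D3:**
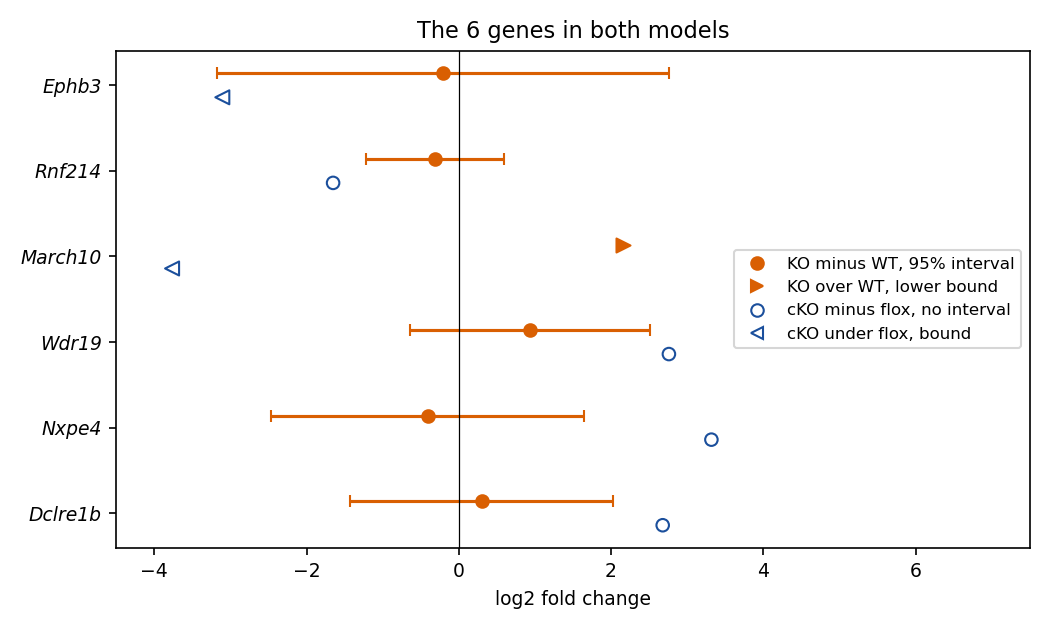
Log2 differences of the 6 genes in both models: filled points are KO minus WT with the 95% interval of the fit, open points cKO minus flox, shown without an interval because the genes were chosen on it, and triangles are bounds against the floor of 3 counts. The KO minus WT intervals drawn all include 0, and *March10* has its KO over WT and cKO under flox bounds on opposite sides of 0.

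WT replicate 2 had an unusual combination of levels for these genes, seen after their values were known. Its *Wdr19*, *Dclre1b* and *Nxpe4* levels of 7.17, 6.21 and 10.0 CPM were the lowest of the WT embryos and, among WT embryos only, the nearest to flox. Its *Ephb3* and *Rnf214* levels of 26.8 and 158 CPM were the highest of all 13. Without it the log2 difference of KO minus WT became 0.82 for *Ephb3*, 0.14 for *Rnf214* and -0.13 for *Dclre1b*, each with the opposite sign.

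Over the 6 WT and KO embryos, which the rule of the choice did not use, *Nxpe4* and *Dclre1b* went together (log2 scale, Pearson r = 0.85, exact permutation p = 0.0278, Spearman rho 0.77) and both went against *Ephb3* (r = -0.86 and -0.91). These were among 15 pairs, and none passed adjustment over the 15 (lowest adjusted p = 0.161, exact permutation, n = 6). Without the 2 embryos farthest from the median the value for *Nxpe4* and *Dclre1b* became 0.64 (WT replicate 2 and KO replicate 3 left out), and those against *Ephb3* became -0.84 and -0.91 (WT replicates 2 and 3 left out). *Wdr19* and *Dclre1b* gave r = 0.83, which turned to -0.62 without WT replicate 2 and KO replicate 2 and so rested on them. The embryos share 2 genotypes and the values share library depth.

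**Figure D4:**
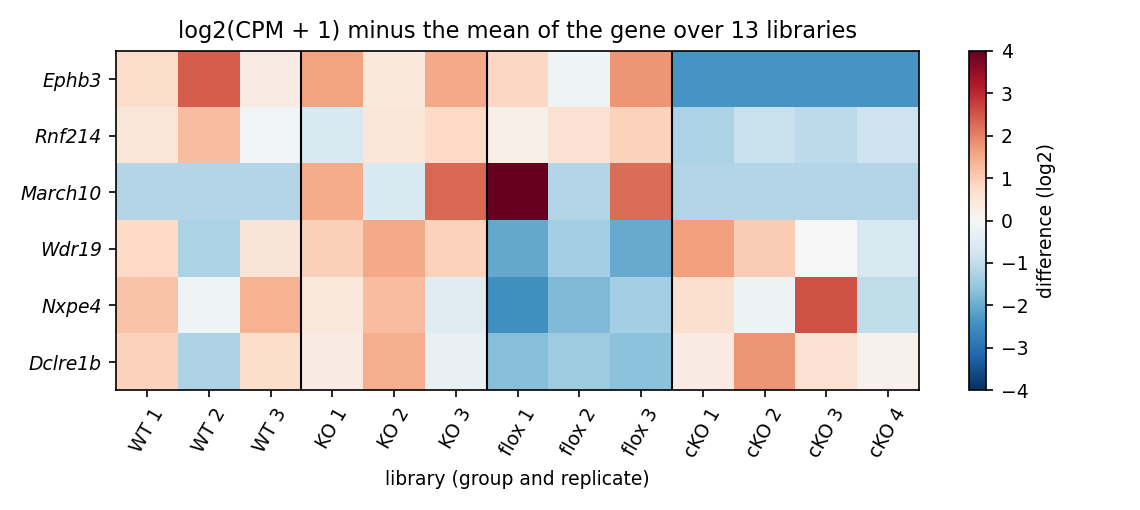
Each cell is log2(CPM + 1) of a gene in 1 library minus the gene's mean over the 13 libraries, with genes as rows and libraries as columns ordered by group. The flox columns are low (blue) for *Wdr19*, *Nxpe4* and *Dclre1b*, the cKO columns are low for *Ephb3* and *Rnf214*, and WT replicate 2 is low for *Wdr19* and *Dclre1b* and high for *Ephb3* and *Rnf214*.

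The flox and cKO embryos together were compared with WT and KO together, which differ in floxed alleles, tamoxifen and Cre, so that these cannot be told apart. EdgeR's quasi-likelihood test called 0.00764% of the tested genes in this comparison. No test is given for the listed genes, because the cKO and flox libraries that chose them enter it. The fitted log2 difference of the conditional minus the constitutive cross was -0.69 for *Rnf214* (SE 0.30), -1.32 for *Wdr19* (SE 0.53), -1.25 for *Nxpe4* (SE 0.70) and -0.99 for *Dclre1b* (SE 0.58), and -4.18 for *Ephb3* (SE 1.12). In each of these 5 genes 1 group of the conditional cross was low. Both groups of that cross entered the choice, so nothing is read from the direction.

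The genes whose levels followed a listed gene most closely over all 13 libraries were mostly not listed. By Pearson r of log2 CPM among all tested genes, *Wdr19* and *Dclre1b* were each in the nearest 3 of the other (r = 0.86), and *Rnf214* was in the nearest 3 of *Ephb3* (r = 0.84). The nearest gene was *Tmem79* for *Ephb3* (0.94), *Psph* for *Rnf214* (0.88), *Alkbh5* for *Wdr19* (0.93), *Ncoa6* for *Nxpe4* (0.81), and *Zbtb6* for *March10* (0.88). With Spearman's rho 0, 1, 2, 1, 1 and 0 of the nearest 3 were again among the nearest 3 for *Ephb3*, *Rnf214*, *Wdr19*, *Nxpe4*, *Dclre1b* and *March10*, and no listed gene was among the nearest 3 of another by that measure. The cKO and flox libraries that chose the genes enter these values, which describe likeness and no more.

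The pathways around the listed genes were then examined through lists of their relatives, of which 0 genes passed the adjusted threshold in either comparison. For *Ephb3*, the other Eph receptors and the ephrins (21 genes, 14 tested) held 0 with an unadjusted p under 0.05 in cKO against flox or in KO against WT, and their median log2 differences were -0.21 and -0.09 beside -0.01 and -0.03 over all tested genes. The lowest p among them in KO against WT belonged to *Efna1*, an ephrin-A ligand, with 29.7 ± 3.34 CPM in KO and 5.60 ± 0.919 in WT (n = 3 each, log2 difference 2.40, edgeR quasi-likelihood adjusted p = 0.864), groups that did not overlap. *Efnb2*, one of the ephrin-B ligands that EphB receptors bind, was at 4.53 ± 4.38 CPM in KO and 17.8 ± 4.06 in WT, also without overlap (adjusted p = 0.974, edgeR). The 14 tested genes thus held 1 without overlap that was higher in KO and 1 that was lower. Over all tested genes these shares were 3.79% and 5.67%, so nothing is read from the 2 genes about the list.

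The partners of *Wdr19* in intraflagellar transport (29 genes, 28 tested) held 0 with an unadjusted p under 0.05 in either comparison. Their median log2 differences were -0.05 in cKO against flox and 0.01 in KO against WT, and 13 and 14 of the 28 had positive fitted values. *Ift22* and *Ift74*, both of the IFT-B complex that carries cargo outward, were the 2 of 28 whose KO embryos all lay below WT, beside 5.67% of all tested genes, with *Ift74* at 167 ± 14.3 against 226 ± 5.36 CPM (n = 3 each).

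Apollo, the product of *Dclre1b*, works at telomeres with shelterin, the complex that caps them. Of the 9 other shelterin and SNM1 genes tested 3 had an unadjusted p under 0.05 in cKO against flox, all higher in cKO, beside 1.32% of tested genes. *Tinf2*, which ties the complex together, was at 80.9 ± 37.1 CPM in cKO (n = 4) and 29.4 ± 12.8 in flox (n = 3), a log2 difference of 1.46. *Terf2*, encoding TRF2, was at 121 ± 56.1 and 59.2 ± 2.67 CPM (log2 difference 1.04), and *Acd*, encoding TPP1, at 55.7 ± 20.7 and 21.3 ± 14.3 (1.38). The adjusted p of each was 1.00 by edgeR's quasi-likelihood test. The count of 3 fell to 0 without cKO replicate 1 and to 1 without any single flox embryo or cKO replicate 3, and the list's median log2 difference was 0.08. The cKO embryos lay all above flox for *Tinf2* and *Terf2* and all below flox for *Terf1*, while the groups of *Acd* overlapped. Over all tested genes 4.97% had groups without overlap in either direction. In KO against WT 1 of the 9, *Pot1b*, which binds single-stranded telomere DNA, had an unadjusted p under 0.05 and was higher in KO, beside 2.36% of tested genes, at 68.3 ± 22.9 CPM in KO and 20.3 ± 3.21 in WT (log2 difference 1.74, edgeR adjusted p = 0.847). *Pot1b* lay the other way in the conditional cross, at 29.0 ± 20.2 CPM in cKO and 55.3 ± 41.5 in flox, groups that overlapped. In the Fanconi anemia and crosslink repair list (19 genes, 17 tested), the pathway in which Apollo also acts, 0 genes had an unadjusted p under 0.05 in either comparison.

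Of the 9 other MARCH ligases tested 1 had an unadjusted p under 0.05 in cKO against flox, lower in cKO, beside 1.87% of tested genes. *March1*, known for turning over immune surface proteins, ranged over 51 to 73 counts in the flox embryos but 2 to 18 in the cKO embryos, or 2.66 ± 2.68 CPM in cKO (n = 4) and 28.5 ± 6.43 in flox (n = 3), a log2 difference of -3.40 (edgeR adjusted p = 1.00). In KO against WT 1 was lower with such a p, beside 3.45% of tested genes, namely *March6*, a ligase of the endoplasmic reticulum, at 50.7 ± 8.79 and 109 ± 47.2 CPM (n = 3 each, log2 difference -1.11, edgeR adjusted p = 0.847). Of the 3 other *Nxpe* genes only *Nxpe3* was tested, with 0 to 22 counts in cKO, 0 to 3 in flox, 0 to 50 in KO and 1 to 89 in WT and with no unadjusted p under 0.05. The sign of its log2 difference was not stable in either comparison (1.95 in cKO minus flox, -0.59 with a replicate block; 0.29 in KO minus WT, -0.42 without KO replicate 3 and 2.11 without WT replicate 3).

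**Figure D5:**
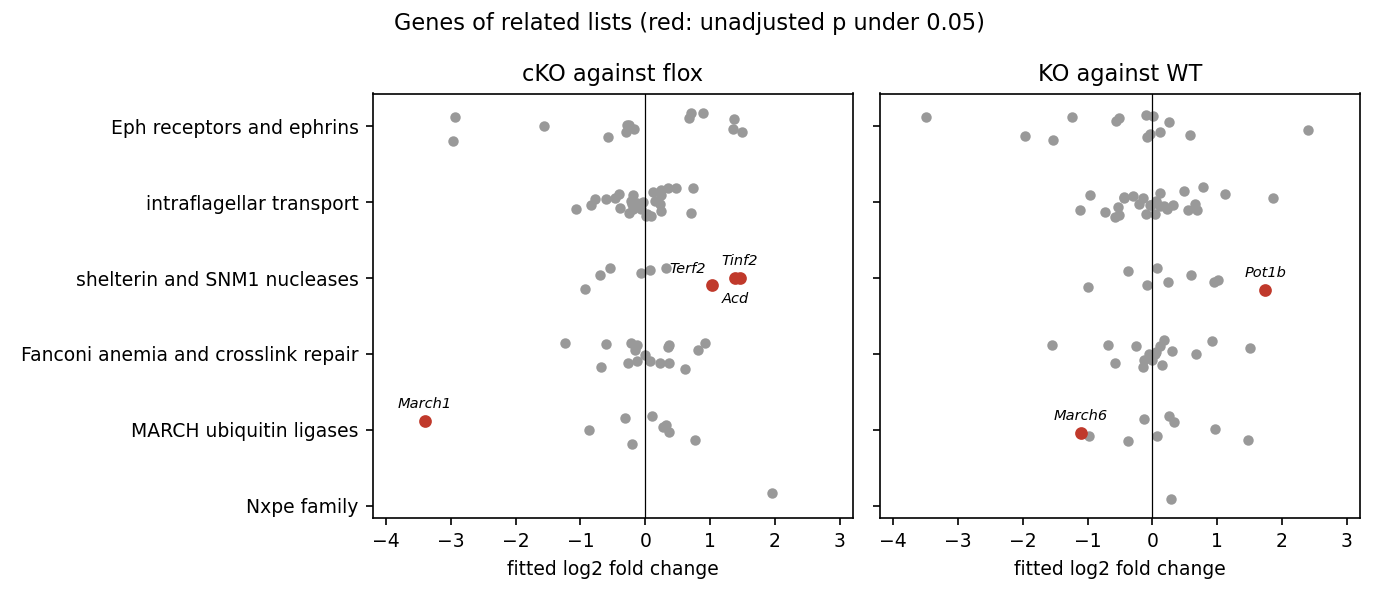
Fitted log2 differences of the tested relatives of the listed genes, each point 1 gene and each row 1 list, for cKO minus flox on the left and KO minus WT on the right. Genes with an unadjusted p under 0.05 by edgeR are in red and named, 3 shelterin genes and *March1* on the left and *Pot1b* and *March6* on the right; 0 of them passed adjustment over the 13086 tested genes.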

How the data were processed

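Per the labels and the study's methods, 3′ tag libraries (QuantSeq FWD) were aligned by the authors to mm10 with STAR 2.6.0 and counted with featureCounts 1.6.3. The deposited values are raw counts per gene without normalization, and no molecular identifiers are described. The strand setting and the annotation were not given in the sources used here. The counted length equals the whole gene interval for all 55335 genes, and names follow GENCODE M21 for 54587. The authors' comparison tables (fold changes and p-values) were not used.

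Counts were fitted here over all 13 libraries with edgeR 4.0.16 (R 4.3.3): filterByExpr (10 counts, total 15), TMM, group means, quasi-likelihood test and Benjamini-Hochberg adjustment at 0.05. Single genes had two-sided exact permutation tests of the mean log2 CPM (prior count 2), computed in Python 3.11.15. Floors of 3 counts cover counting error only, and the 95% intervals of the fit include the spread between embryos. DESeq2 1.42.0, limma 3.58.1 voom, other scalings and filters, 2-group fits, the replicate block and leaving out each embryo were alternatives. The genes and lists were chosen with earlier results of these data known. The genes named are the 6, the nearest gene of each by Pearson r, and list members with an unadjusted p under 0.05 or groups that did not overlap. *Nxpe3* is named as the only tested gene of its list. The list genes *Ephb6*, *Ift43* and *Palb2*, with the lowest p of their lists in cKO against flox, met neither rule and are not described.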

Additional observations from a re-analysis of the deposited data

Results flagged for a closer look

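Within the cKO group *Dclre1b* had 1 embryo apart from the others. Replicate 2 stood at 57.0 CPM (146 counts) and the other 3 embryos at 17.9 to 24.6, so that the gap to its nearest neighbour made up 0.830 of the range of the group, just past Dixon's critical value of 0.829 for 4 samples. Chance alone passes that value in about 5% of groups. Each of the 4 cKO embryos still lay above the flox embryos. The groups of 3 embryos were not examined in this way.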

How the results depend on the processing

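No listed gene was called in KO against WT under any alternative that tested it; the fit of KO and WT alone left out *March10*, and requiring 10 counts in every library kept only *Rnf214* of the 6. No gene of the related lists was called in either comparison. In cKO against flox the 0 genes called became 11 without a filter on low counts and 5 with DESeq2, and stayed at 0 when each embryo was left out in turn. Of the listed genes only *Ephb3* was among the 5, on the contrast that chose it, and none was among the 11. The fit of cKO and flox alone tested 4 of the 6 listed genes and left out *Ephb3* and *March10*. Between crosses 1 listed gene instead of 0 was called with DESeq2, *Ephb3*, whose 0 counts in cKO are part of its choice, so that this is no test of it. *Ephb3* turned to 0.25 in KO minus WT with voom. Leaving out each embryo in turn, the log2 difference of KO minus WT ranged from -0.56 to 0.82 for *Ephb3*, from -0.60 to 0.14 for *Rnf214* and from -0.36 to 0.68 for *Dclre1b*, and that of *March10* between crosses from -0.061 to 1.16; the cause was not tested. The values fitted for *Ephb3* and *March10* in cKO minus flox were -5.45 and -4.56 with voom. The replicate numbers of the sample titles differ from the numbers in the sample codes for some embryos, and the main fit left them out. Correlations of deviations between embryos of the same number were -0.0232 to -0.00982 for KO and WT and 0.00103 to 0.0636 for cKO and flox. Between embryos of different numbers they were 0.00133 to 0.0163 and -0.0451 to 0.0241. As litters were not given, these values cannot decide whether the numbers pair the embryos. With the replicate number as a block 0 genes were called in cKO against flox and 0 in KO against WT, with 357 and 553 genes at an unadjusted p under 0.05. Depth limits *Ephb3*, *March10* and the flox levels of *Wdr19*, *Nxpe4* and *Dclre1b*, which rest on 0 to 82 counts.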
